A study of Mus musculus with 24 samples.

Results

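DNA methylation is written on cytosines by DNA methyltransferases. Dnmt1 copies the methylation pattern onto the new strand after replication, and Dnmt3a and Dnmt3b methylate sites that carried no mark. Proteins with a methyl-CpG-binding domain (Mbd1, Mbd2 and Mbd3) read or associate with the mark and recruit repressor complexes, Mbd2 and Mbd3 as alternative subunits of the NuRD complex of nucleosome remodelling and histone deacetylation. The Gadd45 proteins (Gadd45a, Gadd45b and Gadd45g) are small stress-induced proteins that have been linked to the removal of DNA methylation, and Gadd45b is known as an activity-induced gene of the mouse hippocampus. In the hippocampus, the structure that forms memories of places, de novo methyltransferases are known to be needed for contextual fear memory.

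The messages of these 9 genes, of 21475 genes with a symbol, were measured by 15 of the 41174 gene probes of an Agilent 1-colour microarray. The probes were all those that carry one of the 9 gene names in the scanner files, and all 15 were well above background on all 24 arrays and entered the tests, as did 38768 probes in all. Each array held the hippocampal RNA of 1 C57Bl/6 mouse, in 6 groups of 4. Old mice, aged 16 months, were fear conditioned or served as handled controls, and young mice, aged 3 months, were fear conditioned, exposed to the context alone, exposed to shock-context, or served as handled controls. Fear conditioning was 3 min in a new chamber ended by a foot shock of 0.7 mA for 2 s. Shock-context mice got the shock on entry and explored the chamber only afterwards. Hippocampi were taken 1 h after treatment. A whole hippocampus mixes many cell types, so fewer cells of a type and less RNA per cell cannot be told apart.

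The control and fear-conditioned arrays were scanned first, on 4 slides with 1 array of each of the 4 groups per slide, and the context and shock-context arrays on another day, on 2 further slides. The 75th percentile of signal was 757 to 2137 in the first scan, with 86.2 to 93.8% of probes well above background, and 3101 to 8369 in the second, with 75.1 to 81.4%. Levels are given as the log2 of the processed signal minus the 75th percentile of the same array, so a level of 0 equals that percentile, and levels of different probes are not compared. Differences are log2 differences of group means with the standard error (SE) of the limma fit over all arrays (n = 4 arrays per group throughout), and a probe passed where its adjusted p over all probes tested was below 0.05. In all groups but the old controls, arrays 1 and 2, and arrays 3 and 4, deviated from the group mean more alike than arrays across these pairs, and results lost when such pairs in the first scan were treated as a block are named. Array 2 of the old controls stood apart from its group, and values without it are given where it matters. Markers of hippocampal excitatory neurons were present in all groups, 12 of 12 well above background on all 24 arrays.

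In young fear-conditioned mice 9 of 15 probes passed against young controls, 4 higher and 5 lower, and they belong to Dnmt3a, Mbd1, Mbd2 and Gadd45g. Of all probes 44.6% passed in this comparison (17.2% higher and 27.5% lower), so the share of the 15 probes stands beside a large background. The median over all probes was -0.27, and under quantile normalization the split of all probes passing was 8727 higher and 7973 lower in place of 6657 and 10650, while that of the 15 probes was 5 and 4. In old mice 0 of 15 probes passed between fear-conditioned and control animals (0.126% of all probes), by limma, with 3 at an unadjusted p below 0.05 and a smallest adjusted p of 0.182. Between old and young controls 0 of 15 passed as well (0.547% of all probes), with 3 at an unadjusted p below 0.05.

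The young fear-conditioned hippocampi also differed in markers of neighbouring tissue. The mean level of 13 genes that mark choroid plexus, which secretes the cerebrospinal fluid, was -3.51 to -2.20 in young fear-conditioned mice against 0.29 to 0.92 in young controls, and 13 of 13 fell, 12 of them still well above background on all 4 arrays. In old mice it was 0.24 to 0.56 after fear conditioning and 0.37 to 1.01 in controls, and 0 of 13 passed. The mean of 12 markers of the thalamus, which borders the hippocampus, was 0.61 to 1.12 in old fear-conditioned mice against -0.46 to 0.19 in old controls, where 6 rose, and 0.63 to 0.83 in young fear-conditioned mice against -0.40 to -0.14 in young controls, where 9 rose and 1 fell. The choroid plexus shift was thus present beside the young differences of Dnmt3a, Mbd1, Mbd2 and Gadd45g, and the thalamus shift was present at both ages. Blood cell markers had 5 of 6 lower in young fear-conditioned mice, and 1 of 12 hippocampal neuron markers was higher and 4 lower. Markers of astrocytes (2 higher and 3 lower of 8), oligodendrocytes (3 and 3 of 8), microglia (2 and 2 of 9) and endothelial cells (4 and 3 of 8) went both ways there, while 2 of 9 striatal markers and 5 of 9 markers of dividing cells were lower and 0 higher. Their part in the results on the 9 genes was not tested.

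**Figure D1:**
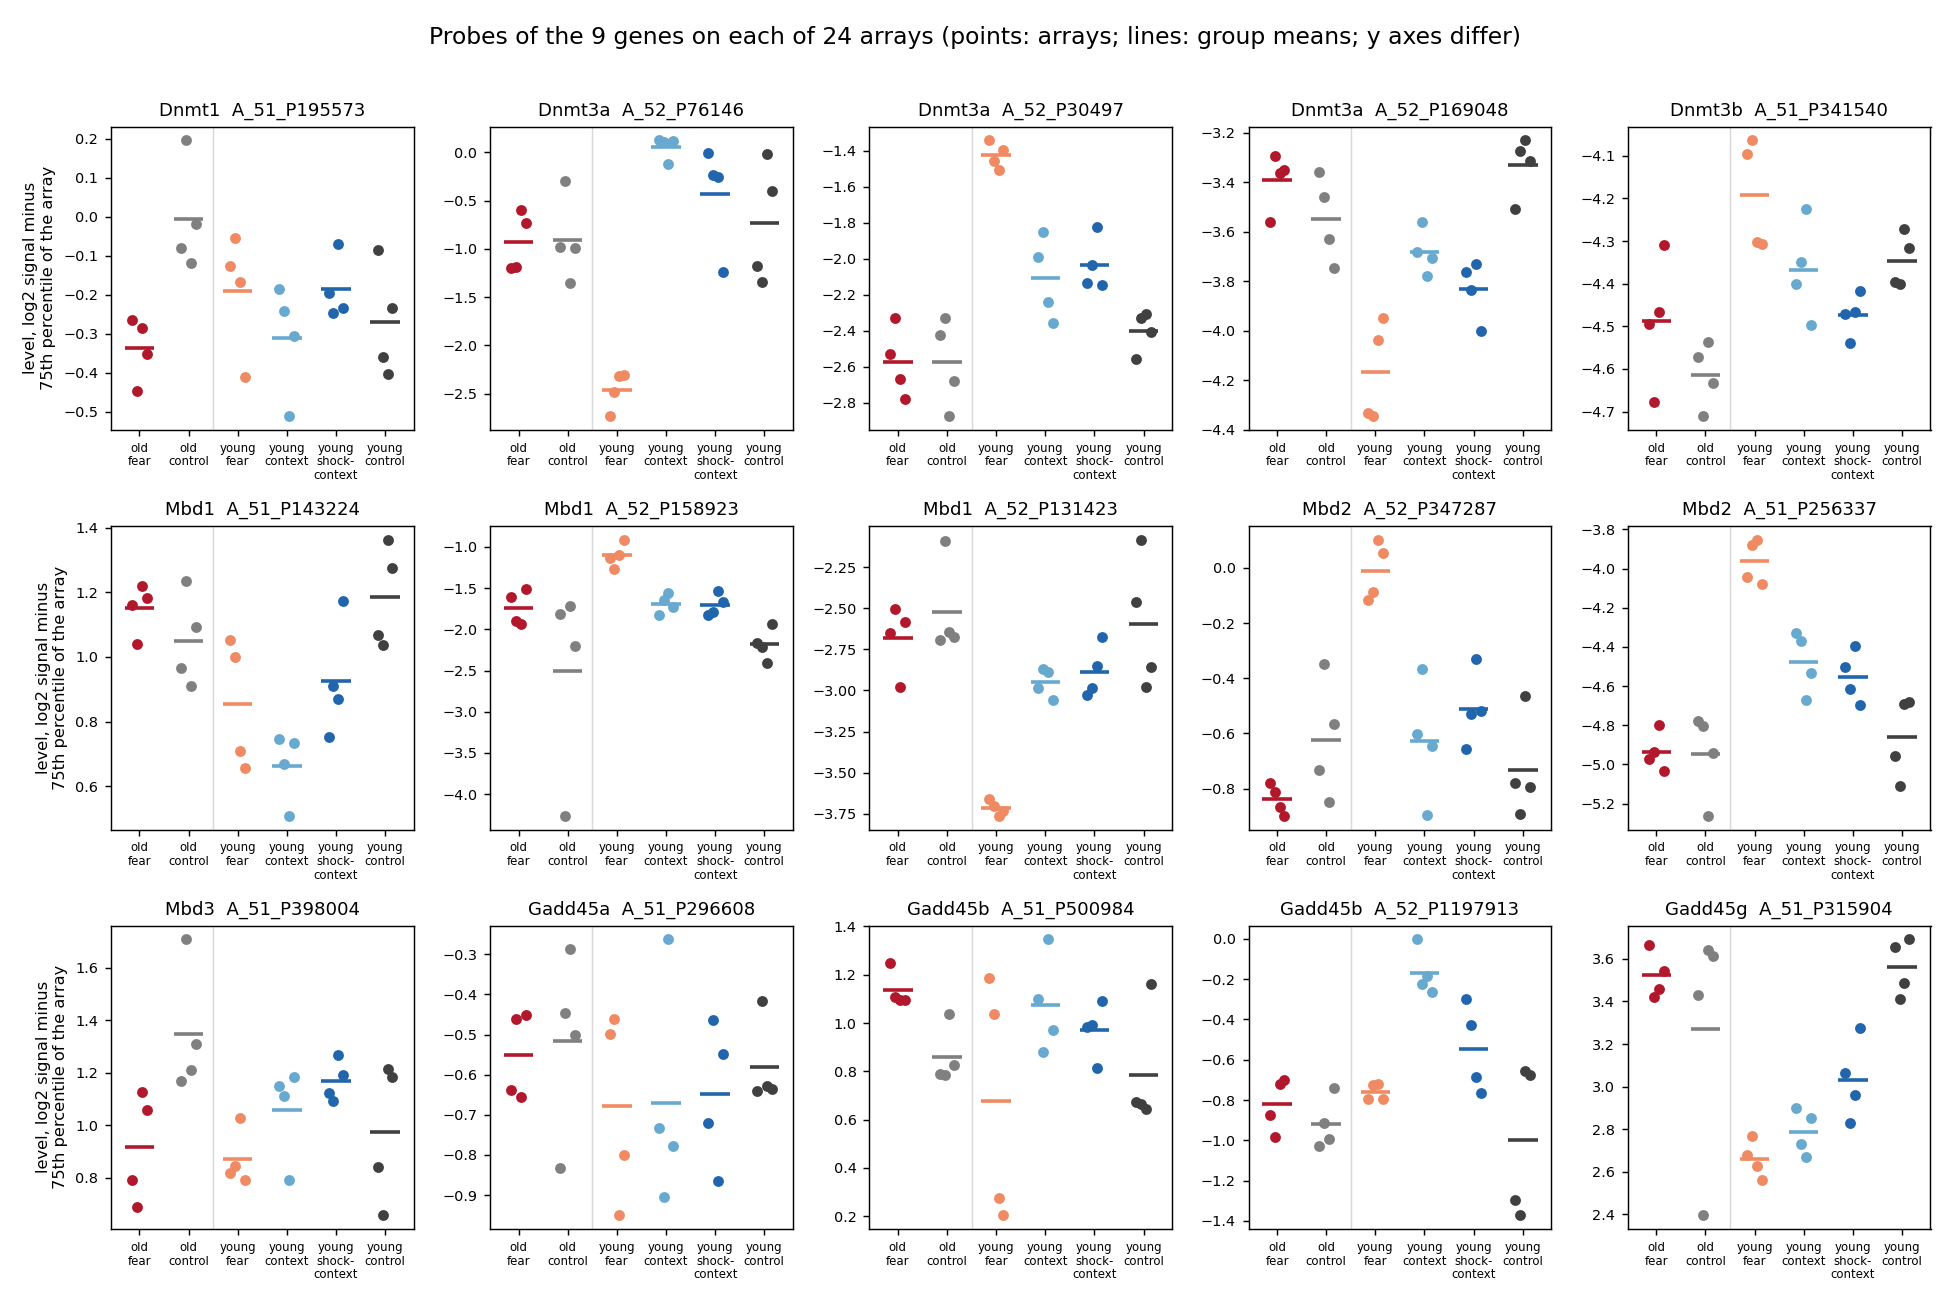
Level of each of the 15 probes (log2 signal minus the 75th percentile of the array, y axes differ) on the 24 arrays in 6 groups; points are arrays in the order 1 to 4 and lines are means of 4. The young fear-conditioned arrays lie apart from the young controls for both Mbd2 probes, for all 3 Dnmt3a probes, for Mbd1 A_52_P131423 and A_52_P158923 and for Gadd45g. Array 2 of the old controls lies apart for Gadd45g at 2.40.

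Dnmt3a, the main de novo methyltransferase of adult brain, was read by 3 probes along chr12 (build mm9, plus strand). The most upstream, A_52_P76146, lies at chr12:3906868-3907649, and since its 60 bases span 782 bases of the genome its ends lie apart there. A_52_P169048 lies at chr12:3908227-3908286, and A_52_P30497, the most downstream, at chr12:3912590-3912649, 5000 bases beyond the end of the first. Their sequences are shown because the probes moved in opposite directions, the first in full and the others as their first 30 bases, 5′ to 3′ in lower case.
Dnmt3a A_52_P76146: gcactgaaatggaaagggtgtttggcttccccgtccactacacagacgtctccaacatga
Dnmt3a A_52_P169048: ctatatatctctttggttgtctctagcctg
Dnmt3a A_52_P30497: gcccggccgtagaattctacagaaacaaca

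The upstream probe A_52_P76146 of Dnmt3a had levels of -1.20, -1.18, -0.59 and -0.74 in old fear-conditioned mice and -0.98, -0.30, -1.35 and -0.99 in old controls. In young mice it read -2.73, -2.49, -2.32 and -2.30 after fear conditioning, against -1.18, -1.34, -0.013 and -0.40 in controls. The young fear-conditioned arrays lay below every other array of the first scan, while the old groups overlapped. The young difference was -1.73 ± 0.28 (3.31-fold lower, adjusted p = 4.49e-05), which is 1.45 below the median of all probes, it was negative on 4 of 4 slides, and it passed under all 20 alternatives. The old difference was -0.022 ± 0.28 (adjusted p = 0.981).

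A_52_P169048 of Dnmt3a moved the same way. Its levels were -3.56, -3.29, -3.36 and -3.35 in old fear-conditioned mice and -3.36, -3.46, -3.63 and -3.74 in old controls, and -4.33, -4.34, -4.04 and -3.95 in young fear-conditioned mice and -3.51, -3.27, -3.23 and -3.31 in young controls. It fell in the young by 0.83 ± 0.11 (1.78-fold lower, adjusted p = 3.36e-06) with no overlap of the groups, and the old difference was 0.16 ± 0.11 (adjusted p = 0.54). The downstream probe A_52_P30497 moved the other way. It read -2.53, -2.33, -2.67 and -2.78 in old fear-conditioned mice and -2.42, -2.33, -2.88 and -2.68 in old controls, while young fear-conditioned mice had -1.34, -1.46, -1.50 and -1.39 and young controls -2.55, -2.33, -2.31 and -2.41. All 4 young fear-conditioned arrays lay above every other array of the first scan. The young difference was 0.98 ± 0.13 (1.97-fold higher, adjusted p = 4.37e-06), positive on 4 of 4 slides, and the old one 0.00023 ± 0.13. Under normexp background correction both of these dimmer probes kept their sign but did not pass (adjusted p = 0.135 for A_52_P169048 and 0.176 for A_52_P30497).

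So the array gives no single direction for the Dnmt3a message in young mice after training. Over the 16 control and fear-conditioned arrays the levels of A_52_P76146 and A_52_P169048 had a Pearson r of 0.88, and each had a negative r with A_52_P30497 (-0.79 and -0.78), a description of arrays that share scaling and groups. Probes of 1 gene that pass in opposite directions were common in this comparison. Of 2993 genes with 2 or more probes passing, 39% held both directions, and of 657 with 3 or more, 61.6% did. Between old and young controls 0 of 11 genes with 2 or more probes passing held both. Over 8183 genes with probes at several positions, the most downstream minus the most upstream probe had a median of -0.0066 in the young comparison. The quartiles were -0.47 and 0.48, and 49.6% of genes were positive. In the old training comparison the median was 0.075 with 61% positive, and between old and young controls -0.066 with 38.9% positive. The part of probe position in the Dnmt3a differences was not tested.

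Neither Dnmt1 nor Dnmt3b passed after training at either age. Dnmt1 (A_51_P195573, chr9:20711973-20712341, minus strand), the maintenance enzyme, averaged -0.34 ± 0.082 in old fear-conditioned mice, -0.0056 ± 0.14 in old controls, -0.19 ± 0.15 in young fear-conditioned mice and -0.27 ± 0.14 in young controls (SD). The young difference was 0.080 ± 0.10 (adjusted p = 0.516). In old mice the 4 fear-conditioned arrays, at -0.45 to -0.26, lay below the 4 controls, at -0.12 to 0.20, but the difference of -0.33 ± 0.10 did not pass (adjusted p = 0.182), and it was -0.26 ± 0.10 without array 2 of the old controls. The Dnmt1 probe has 55% G and C, and in the same old comparison the median over all probes ran from 0.089 for probes with up to 35% G and C to -0.23 for those with over 50 and up to 55%. The part of base composition in the Dnmt1 difference was not tested. Dnmt3b (A_51_P341540, chr2:153513083-153513142, plus strand), the other de novo enzyme and a dim probe here, averaged -4.49 ± 0.15 in old fear-conditioned mice, -4.61 ± 0.076 in old controls, -4.19 ± 0.13 in young fear-conditioned mice and -4.35 ± 0.062 in young controls. Neither training comparison passed for Dnmt3b (0.13 ± 0.088 in old mice and 0.15 ± 0.088 in young mice).

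**Figure D2:**
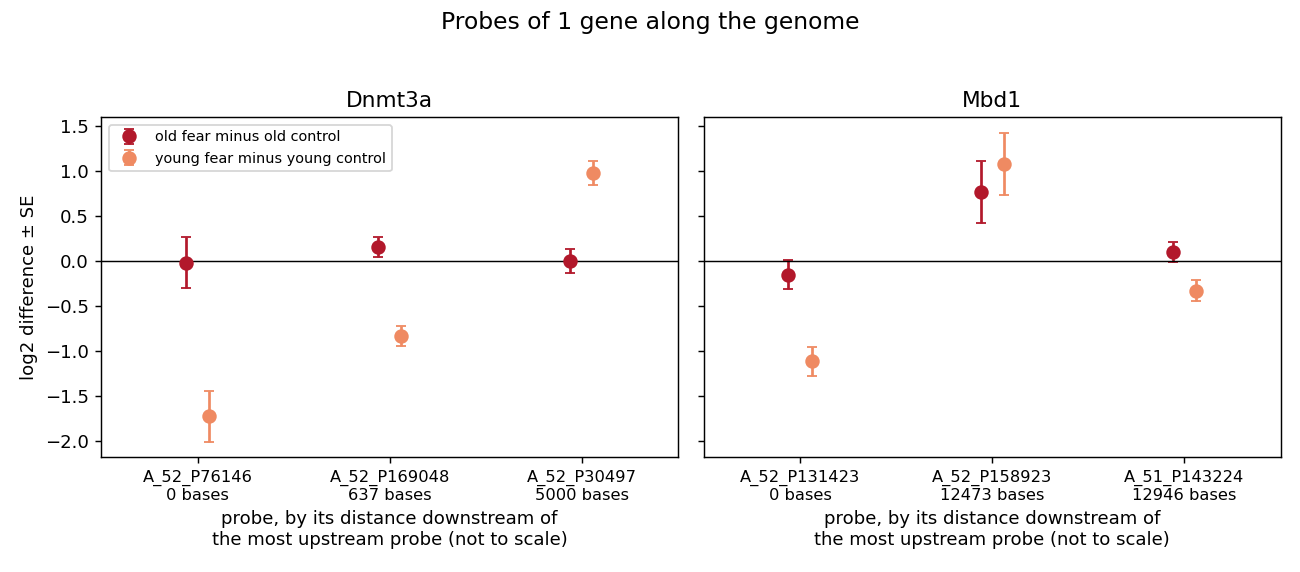
Training difference (log2, ± SE of the fit, n = 4 arrays per group) of the 3 probes of Dnmt3a and of Mbd1, ordered by distance downstream of the most upstream probe in bases. In young mice the Dnmt3a probes stand at -1.73, -0.83 and 0.98 and the Mbd1 probes at -1.12, 1.08 and -0.33, while in old mice the Dnmt3a probes lie between -0.022 and 0.16.

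Among the readers, Mbd2 was higher after fear conditioning in young mice at both of its probes. Mbd2 binds methylated CpG and brings NuRD to it. At probe A_52_P347287 (chr18:70740407-70740466, plus strand) the levels were -0.78, -0.81, -0.87 and -0.90 in old fear-conditioned mice and -0.73, -0.35, -0.85 and -0.57 in old controls. Young fear-conditioned mice had -0.12, -0.088, 0.10 and 0.055, against -0.78, -0.89, -0.46 and -0.79 in young controls. Each young fear-conditioned array lay above every other array of the first scan. The young difference was 0.72 ± 0.12 (1.65-fold, adjusted p = 6.39e-05) and positive on 4 of 4 slides, and the old difference was -0.21 ± 0.12 (adjusted p = 0.445). The second Mbd2 probe, A_51_P256337 (chr18:70753966-70754025), lies 13559 bases downstream. It averaged -4.93 ± 0.098 in old fear-conditioned mice, -4.95 ± 0.22 in old controls, -3.96 ± 0.11 in young fear-conditioned mice and -4.86 ± 0.21 in young controls (SD). Its young difference was 0.90 ± 0.12 (adjusted p = 4.68e-06), also positive on 4 of 4 slides, but this dim probe stood at -0.10 (adjusted p = 0.889) under normexp background correction, whereas A_52_P347287 passed under every alternative run. The 2 probes had a Pearson r of 0.91 over the 16 arrays.

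Mbd1, a reader that recruits repressors through partners other than NuRD, again gave no single direction. Its upstream probe A_52_P131423 (chr18:74429246-74429305, plus strand) read -2.65, -2.50, -2.98 and -2.58 in old fear-conditioned mice and -2.69, -2.09, -2.64 and -2.67 in old controls. The levels were -3.66, -3.70, -3.76 and -3.73 in young fear-conditioned mice, against -2.46, -2.08, -2.98 and -2.86 in young controls. The young fear-conditioned arrays lay close together and below all others of the first scan. The young difference was -1.12 ± 0.16 (2.17-fold lower, adjusted p = 1.33e-05) and the old one -0.15 ± 0.16 (adjusted p = 0.711). A_52_P158923 (chr18:74441719-74441778), 12473 bases downstream, rose in the young by 1.08 ± 0.34 (adjusted p = 0.0144), with levels of -1.13, -1.27, -1.10 and -0.91 after fear conditioning against -2.17, -2.22, -2.41 and -1.94 in controls. That call was lost when the pairs of arrays were a random block (adjusted p = 0.123) and under normexp (adjusted p = 0.138). The slides gave young differences of 0.95 to 1.31, and the SE draws on all arrays, array 2 of the old controls at -4.26 among them. In old mice this probe read -1.61, -1.90, -1.93 and -1.51 after training and -1.82, -4.26, -1.72 and -2.21 in controls, a difference of 0.77 ± 0.34 (adjusted p = 0.344) that shrank to 0.18 ± 0.14 without array 2 of the old controls. The brightest Mbd1 probe, A_51_P143224 (chr18:74442192-74442251), passed at -0.33 ± 0.11 (adjusted p = 0.023) in young mice although the groups overlapped, lay 0.057 below the median of all probes, and lost its call in 11 of 20 alternatives, among them the block of array pairs (adjusted p = 0.0735).

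Mbd3, the NuRD subunit that in mammals binds methylated DNA poorly, was read by A_51_P398004 (chr10:79857864-79857923, minus strand). It averaged 0.92 ± 0.21 in old fear-conditioned mice, 1.35 ± 0.25 in old controls, 0.87 ± 0.11 in young fear-conditioned mice and 0.97 ± 0.27 in young controls (SD). The old difference of -0.43 ± 0.14 did not pass (adjusted p = 0.206) although the 4 fear-conditioned arrays, at 0.69 to 1.13, lay below the 4 controls, at 1.17 to 1.71, and it was -0.31 ± 0.14 without array 2 of the old controls. Like the Dnmt1 probe, the Mbd3 probe has 55% G and C. The young difference was -0.10 ± 0.14 (adjusted p = 0.55).

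Of the Gadd45 genes only Gadd45g passed after training. Sequence of the Gadd45g probe, A_51_P315904 (chr13:51943733-51943792, plus strand), and of the 2 Gadd45b probes is shown because the family members differ in response and the Gadd45b probes in pattern. Each line holds 30 bases of a 60-base probe, bases 1 to 30 except for A_51_P500984, whose bases 30 to 59 are given, and capitals mark AATAAA, the polyadenylation hexamer, searched on the probe strand only and found in 4.78% of all 41174 probes.
Gadd45g A_51_P315904: acttagccgactgcactgctctttcaaaaa
Gadd45b A_52_P1197913: ctatatctctctagaggaacgctgagaccc
Gadd45b A_51_P500984: cagagacattccAATAAActcgttaagcct

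Gadd45g had levels of 3.67, 3.42, 3.46 and 3.54 in old fear-conditioned mice and 3.43, 2.40, 3.64 and 3.61 in old controls. In young mice they were 2.68, 2.77, 2.63 and 2.56 after fear conditioning and 3.66, 3.41, 3.49 and 3.69 in controls. The young fear-conditioned arrays lay below all young controls, and array 2 of the old controls was the one other low array of the first scan. The young difference was -0.90 ± 0.19 (1.87-fold lower, adjusted p = 0.000498), negative on 4 of 4 slides. It did not pass with the deposited values (-0.46, adjusted p = 0.269) or under normexp background correction (-0.64, adjusted p = 0.243). The old difference was 0.25 ± 0.19 (adjusted p = 0.559), and -0.038 ± 0.11 without array 2 of the old controls.

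Gadd45b did not pass in either age, and its probes differed in pattern. At A_51_P500984 (chr10:80394890-80394949, plus strand) the levels were 1.25, 1.11, 1.09 and 1.09 in old fear-conditioned mice and 0.79, 0.78, 1.04 and 0.83 in old controls. Here the old groups did not overlap, but the difference of 0.28 ± 0.18 did not pass (adjusted p = 0.502). Young fear-conditioned mice had 1.19, 1.04, 0.28 and 0.20, against 0.67, 0.66, 0.64 and 1.16 in young controls. In the young, arrays 1 and 2 of the fear-conditioned mice were high and arrays 3 and 4 low, and array 4 of the controls was high, so that the slides gave differences of -0.96 to 0.52 and the fitted one was -0.11 ± 0.18 (adjusted p = 0.627). The other Gadd45b probe, A_52_P1197913 (chr10:80394367-80394426), lies 523 bases upstream and averaged -0.82 ± 0.13, -0.92 ± 0.13, -0.76 ± 0.041 and -1.0 ± 0.39 in old fear-conditioned, old control, young fear-conditioned and young control mice (SD). Its differences were 0.10 ± 0.15 in old and 0.24 ± 0.15 in young mice, neither passing (adjusted p = 0.797 and 0.18), and its r with the first probe was 0.14. Gadd45a (A_51_P296608, chr6:66985376-66985435, minus strand), a p53-induced member of the family, averaged -0.55 ± 0.11, -0.52 ± 0.23, -0.68 ± 0.24 and -0.58 ± 0.11 in the same order of groups, and its training differences were -0.036 ± 0.14 in old and -0.098 ± 0.14 in young mice. As a check of neuronal activation, the immediate early gene Fos was higher in fear-conditioned mice in the old by 1.78 ± 0.29 (adjusted p = 0.0123) and in the young by 2.41 ± 0.29 (adjusted p = 1.29e-06). The other immediate early genes did not pass at either age, with Arc at 0.51 ± 0.26 in old and 0.41 ± 0.26 in young mice, Egr1 at 0.74 ± 0.19 and 0.47 ± 0.19, and Npas4 at -0.10 ± 0.24 and -0.076 ± 0.24.

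**Figure D3:**
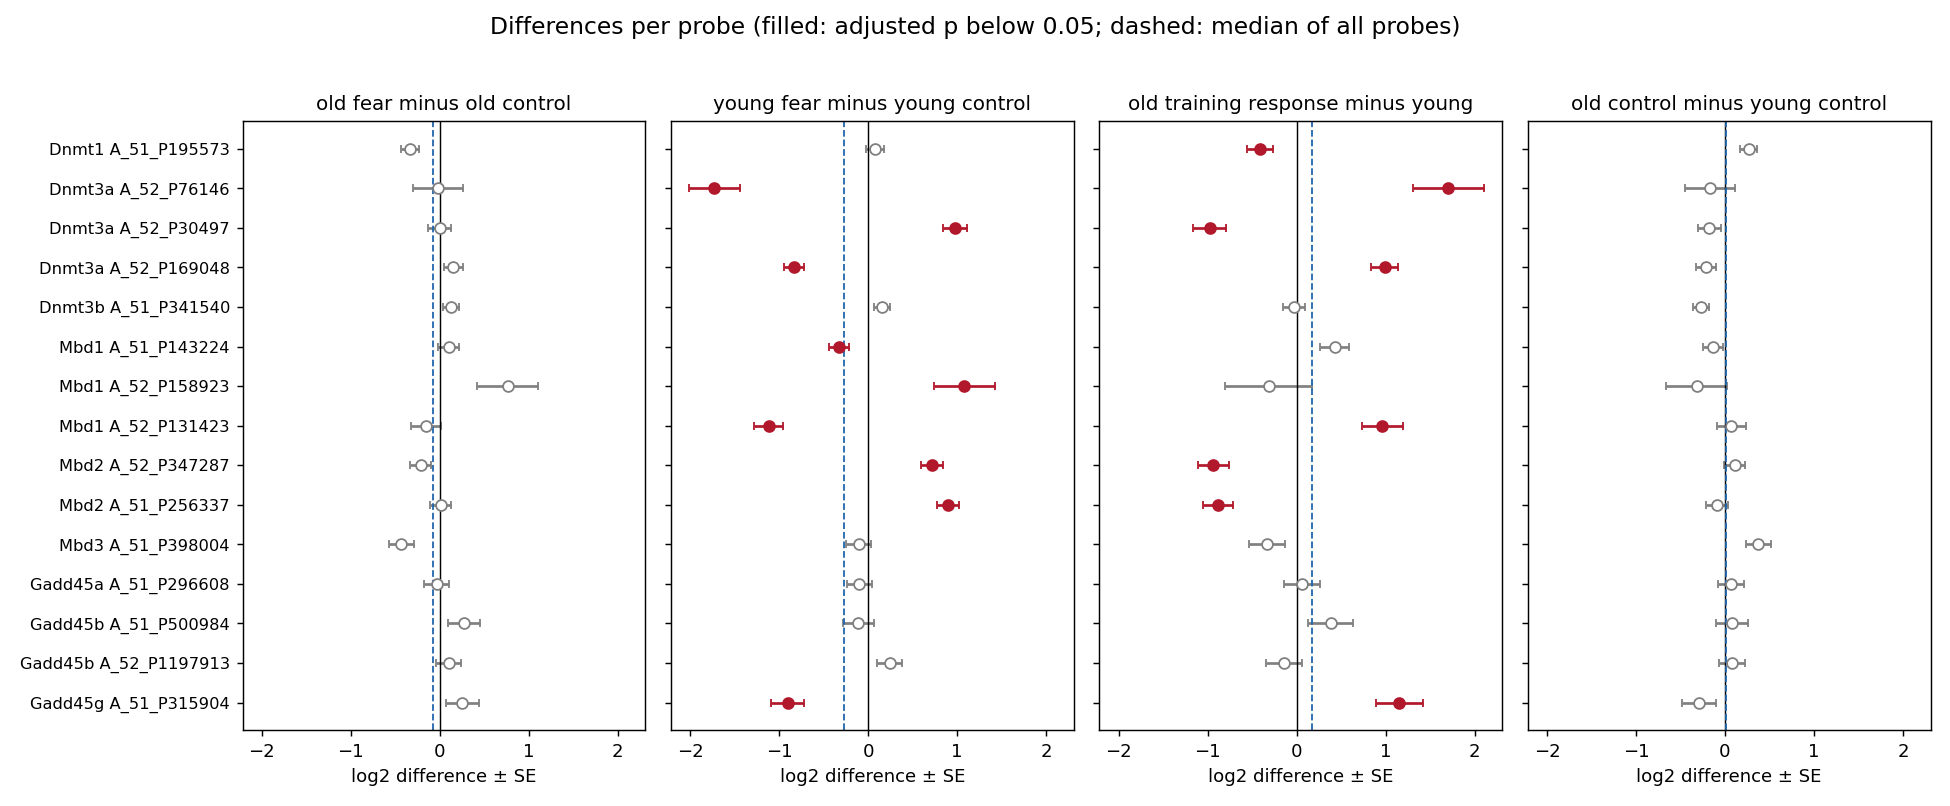
Log2 difference (± SE of the fit, n = 4 arrays per group) of each of the 15 probes between fear-conditioned and control mice in old and in young mice, the old training difference minus the young one, and old against young controls; filled points have an adjusted p below 0.05 and the dashed line is the median of all probes. In the old 0 of 15 probes are filled and in the young 9, the lowest being Dnmt3a A_52_P76146 at -1.73.

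Whether the training difference itself changed with age was tested as the old difference minus the young one. Here 8 of 15 probes passed, 4 with a positive and 4 with a negative sign, against 25.9% of all probes (14.3% positive and 11.5% negative, or 4570 positive and 5748 negative under quantile normalization in place of 5562 and 4470). Dnmt3a A_52_P76146 was at 1.70 ± 0.40 (adjusted p = 0.0031) and Gadd45g at 1.16 ± 0.26 (adjusted p = 0.00251). Dnmt3a A_52_P169048 had 0.99 ± 0.15 (adjusted p = 8.78e-05) and A_52_P30497 -0.98 ± 0.18 (adjusted p = 0.000535), Mbd1 A_52_P131423 0.96 ± 0.23 (adjusted p = 0.00382), and the Mbd2 probes -0.94 ± 0.17 and -0.88 ± 0.17 (adjusted p = 0.000412 and 0.000629), the second of which turned to 0.21 under normexp. Each of these has the sign opposite to the young difference. Dnmt1 passed at -0.41 ± 0.14 (adjusted p = 0.0371), a call lost in 14 of 28 alternatives. Without array 2 of the old controls, Gadd45g was at 0.86 ± 0.15 and Dnmt1 no longer passed (-0.34 ± 0.14, adjusted p = 0.0723). Mbd1 A_52_P158923 then stood at -0.90 ± 0.19 (adjusted p = 0.00138), and Mbd1 A_51_P143224 at 0.49 ± 0.16 (adjusted p = 0.0282), though neither passed with that array. Once paired arrays formed a random block, Mbd1 A_52_P131423 and Dnmt1 did not pass (adjusted p = 0.0504 and 0.186). Under normexp 2 of the 15 passed, Dnmt3a A_52_P76146 and Mbd2 A_52_P347287, and the adjusted p was 0.499 for Dnmt3a A_52_P169048, 0.434 for A_52_P30497, 0.187 for Mbd1 A_52_P131423 and 0.225 for Gadd45g, which was at 0.139 with the deposited values. With each pair of arrays averaged, which leaves 2 values per group, 0 of 15 passed, and 268 of all probes did in place of 10032. Tissue markers differed in the same contrast. Of 13 choroid plexus markers 12 were positive and 0 negative (list median 3.12). Blood cell markers had 3 positive and 0 negative of 6, and thalamus markers 2 positive and 2 negative of 12. The part of these markers in the 8 calls was not tested.

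Old and young fear-conditioned mice, compared directly, differed at 10 of 15 probes, 6 higher and 4 lower in the old (39.9% of all probes, 22.9% higher and 17% lower). Under quantile normalization the split was 4 and 4 among the 15 and 7112 higher and 8267 lower among all probes, in place of 8872 and 6583. The calls included all 3 Dnmt3a probes (1.53 ± 0.28, 0.77 ± 0.11 and -1.15 ± 0.13 from upstream to downstream), both Mbd2 probes (-0.83 ± 0.12 and -0.97 ± 0.12, the second turning to 0.57 under normexp), Mbd1 A_52_P131423 (1.03 ± 0.16) and Gadd45g (0.86 ± 0.19), with no overlap of the groups in any of these. Gadd45g did not pass with the deposited values (adjusted p = 0.132) or under normexp (adjusted p = 0.115), nor did Dnmt3a A_52_P30497 under normexp (adjusted p = 0.128). Smaller differences of Dnmt3b (-0.29 ± 0.088, adjusted p = 0.0101), Mbd1 A_51_P143224 (0.30 ± 0.11, adjusted p = 0.044) and Gadd45b A_51_P500984 (0.46 ± 0.18, adjusted p = 0.0466) did not pass once paired arrays formed a random block (adjusted p = 0.0674, 0.12 and 0.133), and Dnmt3b turned to 0.89 under normexp. With the replicate number as a block the last 2 had adjusted p of 0.0593 and 0.0632. This comparison shares the young fear-conditioned arrays with the young training comparison. In it 12 of 13 choroid plexus markers were higher in the old and 0 lower (list median 3.24). Blood cell markers had 5 higher and 0 lower of 6, and thalamus markers 2 higher and 2 lower of 12. Their part in the 10 calls was not tested. Between old and young controls Mbd3 was at 0.38 ± 0.14 (adjusted p = 0.346), and at 0.26 ± 0.14 without array 2 of the old controls. Dnmt3b was lower by 0.27 ± 0.088 in old controls with no overlap of the groups (adjusted p = 0.243), and Dnmt1 was at 0.26 ± 0.10 (adjusted p = 0.358). The median over all probes with 50 to 55% G and C was 0.11 in that comparison.

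Context and shock-context mice differed from young fear-conditioned and control mice by scan and slide too, so for these comparisons scan and treatment cannot be told apart. Scaling also set the direction of many probes here. Of all probes 68.8% passed between context and control mice (18.4% higher and 50.4% lower, or 7147 and 19541 probes, but 12269 and 13950 with median scaling). Between shock-context and control mice 65.4% passed (16.1% higher and 49.3% lower, or 6244 and 19123 probes, but 12455 and 13046 with median scaling). Among the 15 probes, 6 passed in context mice (3 higher, 3 lower, but 10 and 0 with median scaling) and 5 in shock-context mice (3 higher, 2 lower, but 9 and 0). Young fear-conditioned mice differed from context mice at 7 probes, 3 higher and 4 lower (65.9% of all probes, 46.1% higher and 19.8% lower), and from shock-context mice at 7, 4 higher and 3 lower (64.9% of all probes, 46% higher and 18.9% lower). With median scaling these splits among the 15 were 3 and 6 against context and 3 and 8 against shock-context mice, and 2 and 5 in both with the deposited values. Among all probes they were 14289 and 10307 against context and 13677 and 10776 against shock-context mice with median scaling. With the deposited values they were 11802 and 9633, and 10959 and 9399. The 15 probes split into 2 and 5, and 2 and 4, with quantile normalization. Under quantile normalization all probes split into 13104 higher and 10320 lower against context mice, in place of 17880 and 7664, and 12254 and 10196 against shock-context mice, in place of 17823 and 7321.

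Gadd45b A_52_P1197913 read -0.0024, -0.23, -0.18 and -0.27 in context mice and -0.30, -0.43, -0.69 and -0.76 in shock-context mice, against -1.29, -1.37, -0.66 and -0.68 in young controls. The context arrays lay above all young controls. The difference from controls was 0.83 ± 0.15 in context mice (adjusted p = 3.76e-05, passing under all 17 alternatives) and 0.46 ± 0.15 in shock-context mice (adjusted p = 0.0092, and 0.0798 with only the compared arrays in the fit), and fear-conditioned minus context mice was -0.59 ± 0.15 (adjusted p = 0.00133). The other Gadd45b probe, A_51_P500984, did not pass against controls in either group. It averaged 1.07 ± 0.20 in context, 0.97 ± 0.12 in shock-context and 0.78 ± 0.25 in young control mice (SD), and both groups overlapped the controls. The Dnmt3a probe A_52_P76146 had 0.12, 0.10, -0.12 and 0.11 in context mice and -0.0060, -0.23, -0.26 and -1.24 in shock-context mice. Fear-conditioned mice lay below them by 2.52 ± 0.28 (adjusted p = 2.13e-07) and 2.03 ± 0.28 (adjusted p = 3.89e-06). In these comparisons too, 12 of 13 choroid plexus markers were lower and 1 higher in fear-conditioned mice (list median -3.26 against context and -3.29 against shock-context mice), with mean levels of -3.51 to -2.20 in fear-conditioned, -0.14 to 0.96 in context and 0.14 to 1.17 in shock-context mice. Of 12 thalamus markers, 8 were higher than in context and 9 higher than in shock-context mice, with 1 lower in each, and the mean levels were 0.63 to 0.83 in fear-conditioned, -0.64 to -0.36 in context and -0.48 to -0.33 in shock-context mice. The part of these markers was not tested. Dnmt3a A_52_P30497 was higher in fear-conditioned than in context mice by 0.69 ± 0.13 and than in shock-context mice by 0.61 ± 0.13 (adjusted p = 0.000119 and 0.000406). Mbd2 A_52_P347287 was likewise higher, by 0.62 ± 0.12 and 0.50 ± 0.12 (adjusted p = 0.000172 and 0.00134). Under normexp both of these calls of Dnmt3a A_52_P30497 were lost (adjusted p = 0.0573 and 0.105).

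Gadd45g, which fell in young fear-conditioned mice against controls, had levels of 2.90, 2.73, 2.67 and 2.85 in context mice and 3.06, 2.83, 2.96 and 3.28 in shock-context mice, all below the young controls. Fear-conditioned mice differed from context mice by -0.13 ± 0.19 (95% interval -0.52 to 0.26, adjusted p = 0.558) and from shock-context mice by -0.37 ± 0.19 (adjusted p = 0.084). The fear-conditioned arrays, at 2.56 to 2.77, overlapped the context arrays but lay below all shock-context arrays. The SE draws on all 24 arrays, array 2 of the old controls (2.40) among them, and these comparisons were not refitted without that array. The differences from controls were -0.77 ± 0.19 in context mice and -0.53 ± 0.19 in shock-context mice (adjusted p = 0.000992 and 0.017), but neither passed with median scaling (-0.42 and -0.15) or with the deposited values (-0.21 and 0.014). Between context and shock-context mice, which were scanned together, 0 of 15 probes passed (0% of all probes), by limma, with 2 at an unadjusted p below 0.05 among the 15 and 2188 among all probes.

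Genes around this set were followed with the brightest probe of each gene, for which 44.8% of genes with a symbol passed in the young training comparison (13.5% higher and 31.3% lower) and 0.131% in the old one. In old mice 0 genes of the 7 lists passed. Of 7 partners of the writers, 1 was higher and 4 lower in young fear-conditioned mice (list median -0.38, against -0.27 for all probes). Hells, a helicase needed for de novo methylation, rose by 0.62 ± 0.14, while Pcna, the replication clamp that tethers Dnmt1, fell by 0.84 ± 0.084 and Trdmt1, an RNA methyltransferase related to the Dnmt family, fell by 0.68 ± 0.11. Dmap1, a partner of Dnmt1, fell by 0.39 ± 0.087. Of 7 further readers 2 were higher and 4 lower (median -0.40), with Mbd4, a glycosylase of deaminated methyl-CpG, at 0.57 ± 0.16 and Zbtb38 at -1.52 ± 0.29, Mbd6 at -0.88 ± 0.11 and Zbtb4 at -0.76 ± 0.12.

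Of 17 genes of oxidation and base excision, the steps that take methylation off, 3 were higher and 5 lower in the young (median -0.11). Parp1, a sensor of DNA breaks, rose by 0.91 ± 0.16, and Apobec2, a member of the deaminase family, fell by 1.79 ± 0.21. The uracil glycosylase Ung fell by 0.73 ± 0.11, and Apobec1, a cytidine deaminase, fell by 0.67 ± 0.12. NuRD partners of Mbd2 and Mbd3 were 7 higher and 2 lower of 11 (median 0.40). Gatad2b and Gatad2a, which link the Mbd proteins to the remodeller, rose by 1.54 ± 0.16 and 0.88 ± 0.081, Mta2 rose by 0.54 ± 0.079, and Rbbp4, a histone chaperone, fell by 1.53 ± 0.095 (adjusted p = 7.13e-10). Of 10 stress genes and partners of Gadd45, 2 were higher and 4 lower, among them Ppp1r15a (Gadd34) at 0.62 ± 0.20, Ddit3 (Gadd153) at -0.72 ± 0.079, Gadd45gip1 at -0.72 ± 0.16 and Cdk1, a kinase that Gadd45 proteins inhibit, at -0.94 ± 0.23.

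Of 12 genes of the methyl donor cycle 3 were higher and 2 lower (median -0.20), with Ahcyl1 at 0.42 ± 0.080, Shmt2 at 0.41 ± 0.10, Bhmt at -1.0 ± 0.22 and Gnmt at -0.55 ± 0.20. Of 7 neuronal genes for which control by methylation has been reported, 2 were higher and 3 lower (median -0.25). The growth factor gene Fgf1 rose by 1.10 ± 0.11 and reelin (Reln) by 0.54 ± 0.15, while Ppp3ca, the catalytic subunit of calcineurin, fell by 0.44 ± 0.11 and Bdnf by 0.25 ± 0.093 (adjusted p = 0.0328). These values each rest on 1 probe, and probes of 1 gene could differ in sign, as for Dnmt3a. In the old minus young training difference (25.4% of genes with a symbol passed, 16.7% positive and 8.7% negative) the NuRD list had 2 positive and 6 negative, with Rbbp4 at 1.40 ± 0.13 and Gatad2b at -1.32 ± 0.22. Between old and young controls Ung was the 1 gene of these lists that passed (0.729% of genes with a symbol), at -0.50 ± 0.11 (adjusted p = 0.0289).

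**Figure D4:**
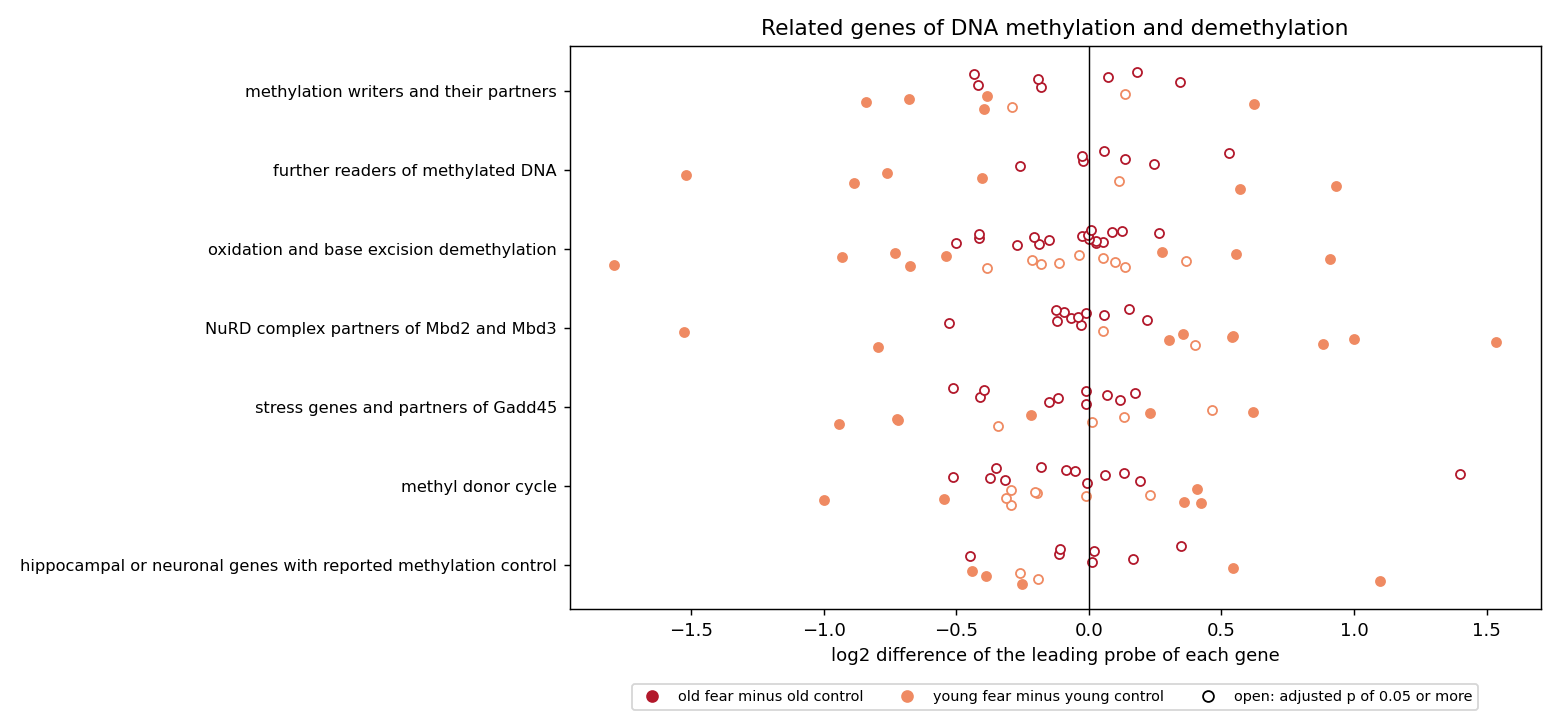
Training difference (log2) of the brightest probe of each gene in 7 lists of related genes, old mice above and young mice below in each row; filled points have an adjusted p below 0.05. In the NuRD row the young values run from -1.53 for Rbbp4 to 1.54 for Gatad2b, and in old mice 0 points are filled.

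The genes whose level most resembled that of each member were sought among 18743 genes over the 16 arrays of the first scan. For Dnmt3a (A_52_P76146) they were Fam123b (Pearson r = 0.99), Pam (0.98) and 1700066C05Rik (0.98), and for Mbd2 (A_52_P347287) Cyth3 (0.98), Git1 (0.98) and Edc3 (0.98). Gadd45g came closest to Hbp1 (0.96), Ndufb4 (0.96) and Vkorc1 (0.95), Mbd3 to BC011248 (0.96), Mtif3 (0.95) and Kcnh2 (0.95), and Dnmt1 to Taok2 (0.94), St13 (0.88) and Mzf1 (0.87). Dnmt3b was closest to Uba6 (0.92), Mbd1 (A_51_P143224) to Tmem145 (0.91), Gadd45a to Lhx6 (0.91) and Gadd45b (A_51_P500984) to D10Bwg1070e (0.88). The arrays share scaling, slides and groups, so these values describe likeness of the probes only.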

How the data were processed

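RNA of 1 hippocampus sample per mouse (600 ng, per the labels) was hybridised to 24 Agilent 1-colour arrays. The authors' scanner files hold intensity per spot, written by Agilent Feature Extraction 9.5.3.1 per the file headers, and the processed signal in them is corrected for background and spatial trends. The deposited value table names no scale. Its columns rank spots as the median spot signal does (Spearman 1), which does not fix the scale. It was read as log2 values made by the authors from the size of its values, with medians of about 8.57. The submitters' processing notes name Agilent Feature Extraction and limma, and the order of steps is not given in the sources used here. The number of arrays limits the precision.

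Here the processed signal was put on a log2 scale relative to the 75th percentile of its array, without control and outlier spots, and averaged per probe. Testing used the 38768 of 41174 probes that were well above background on 4 or more of the 24 arrays, with 6 group means fitted over all arrays in limma 3.58.1 (18 residual degrees of freedom, two-sided, Benjamini-Hochberg adjustment, R 4.3.3). Groups came from the sample titles. Positions are mm9, from the files of the second scan; the first names mm7, and both give the 9 gene names to the same 15 probes.

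Replicate numbers mark the slide in the control and fear-conditioned groups. Deviations of same-numbered arrays correlated over 0.1 in 15 of 24 pairs (range -0.42 to 0.65). The fit did not use this pairing. With slide as a random block 19747 of all probes passed in the young and 140 in the old training comparison, in place of 17307 and 49. The replicate block is an alternative. The others were quantile normalization, median scaling, normexp (offset 50), other filters, 1 probe per gene, the deposited values, random blocks of slide (correlation 0.18) or array pair (correlation 0.32), averaged array pairs, fewer arrays in the fit, and leaving out each array. All probes of the 9 genes are described. From each list of related genes up to 4 passing genes of smallest adjusted p are named, and for each member up to 3 genes of highest Pearson r. The members and lists were chosen with earlier results of these data known. The fit was tested on simulated data.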

Additional observations from a re-analysis of the deposited data

Results flagged for a closer look

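Within groups of 4 arrays, 7 of 90 sets of levels had 1 array far from the other 3 by Dixon's criterion, where chance gives about 1 in 20. At Gadd45g array 2 of the old controls was low, at 2.40, and it was high at Mbd1 A_52_P131423, at -2.09. At Gadd45b A_51_P500984 1 array stood high in old fear-conditioned mice (1.25), in old controls (1.04) and in young controls (1.16). Array 2 of the young controls was high at Gadd45a (-0.42), and array 3 of the context mice was low at Dnmt3a A_52_P76146 (-0.12).

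The training difference differed between old and young mice, by the test of the difference itself, at 8 of 15 probes, against 25.9% of all probes. All 8 calls were lost with array pairs averaged, and under normexp 2 of 15 probes passed. The Dnmt1 call was lost in 14 of 28 alternatives. The old minus young values were 1.70, -0.98 and 0.99 for the Dnmt3a probes A_52_P76146, A_52_P30497 and A_52_P169048, 1.16 for Gadd45g, 0.965 for Mbd1 A_52_P131423, -0.94 and -0.88 for Mbd2 A_52_P347287 and A_51_P256337, and -0.41 for Dnmt1.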

How the results depend on the processing

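Of the 15 probes, 0 passed in old mice, between controls and between context and shock-context mice under every alternative run. Normexp background correction, which took the mean spot signal and its background in place of the processed signal, left 3 probes passing in the young training comparison. It left 2 for the age difference in training and 4 between old and young fear-conditioned mice. Against controls it left 3 for context and 1 for shock-context mice, and fear conditioning kept 3 against context and 2 against shock-context. Besides calls of dim probes it ended those of Gadd45g, whose mean level was 3.14. It also ended those of Gadd45b A_51_P500984 (mean level 0.92) and Dnmt1 (-0.22), and some of Mbd1 A_51_P143224 (0.97). Of all probes it left 7025, 2646, 7463, 20927, 18078, 13127 and 10524 in that order, in place of 17307, 10032, 15455, 26688, 25367, 25544 and 25144. Taking the probe of highest mean per gene, which tests 9 probes by construction, left 4, 4, 6, 3, 2, 2 and 3 in the same order. Of all 26176 probes tested that way, 11321, 6245, 9912, 18431, 17498, 17261 and 16992 passed. Averaged array pairs, with 2 values per group, left 0 for the age difference in training. Median scaling raised the counts to 10 and 9 for context and shock-context against controls and to 11 for fear conditioning against shock-context. Of all probes 26219, 25501 and 24453 then passed, in place of 26688, 25367 and 25144. Without 1 array the counts for shock-context against controls were 3 to 7, the 3 coming without array 3 of the shock-context mice, and those of the young training comparison 8 to 9. Of all probes 23683 to 25059 then passed for shock-context against controls, 24080 of them without array 3 of the shock-context mice. In the young training comparison 15101 to 17704 did. With the replicate number as a block 9, 0 and 8 probes passed in the young and old training comparisons and their difference, and 8 between old and young fear-conditioned mice, where the calls of Mbd1 A_51_P143224 and Gadd45b A_51_P500984 ended. Of all probes 17349, 27, 9986 and 15505 passed under the block in these comparisons, in place of 17307, 49, 10032 and 15455. In context and shock-context mice the replicate numbers do not mark slides shared with the other groups. So the 8 calls for context against controls under the block, in place of 6, are not paired values (26727 of all probes, in place of 26688). The block changed no other call.

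Directions turned in these cases, and the cause was not tested. Under normexp Mbd2 A_51_P256337 had -0.10 in the young training comparison, 0.21 for the age difference, 0.57 between old and young fear-conditioned mice, and -0.75 and -0.74 for context and shock-context against controls. Dnmt3b had 0.89 between old and young fear-conditioned mice, Dnmt3a A_52_P30497 -0.049 for shock-context against controls, and Dnmt3a A_52_P169048 0.0096 for fear conditioning against shock-context. For context against controls A_52_P169048 had 0.32 with quantile normalization, 0.00088 with median scaling and 0.13 with the deposited values, and for shock-context 0.24 and 0.031 with quantile normalization and deposited values. Gadd45g had 0.014 for shock-context with the deposited values. With quantile normalization Mbd2 A_51_P256337 had -0.094 and -0.075 for fear conditioning against context and shock-context, and Dnmt3b against shock-context had -0.39, and -0.25 with the deposited values.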
